A study of Mus musculus with 9 samples.

Results

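Ccl24, Ccl22, Ccl17, Ccl6 and Ccl9 were followed through 9 RNA-seq libraries of mouse bone marrow (BM)-derived Mϕs. The first 3 are CC chemokines linked to type 2 immunity, and Ccl6 and Ccl9 are CC chemokines that Mϕs make without stimulation. They were chosen by symbol, with earlier results of these data known, and all 5 are among the 53379 genes of the table. BM cells of 3 wild-type C57BL/6 mice were cultured in 10 ng/ml MCSF, the growth factor that turns marrow cells into Mϕs, for 3 days. For a further 4 days the cells received MCSF alone (control), MCSF with IL-4 at 10 ng/ml, or MCSF with IL-6 at 100 ng/ml. Each condition has 3 libraries, which carry the numbers #1 to #3 of the mice. The age of the mice is not given, the cells were not sorted before lysis, and MCSF was present in all 3 groups.

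Chemokines are small secreted proteins that guide leukocytes through G protein-coupled receptors. CCL24, also called eotaxin-2, attracts eosinophils through CCR3, while CCL17 and CCL22 share the receptor CCR4 on type 2 helper and regulatory T cells. CCL6 and CCL9 are rodent chemokines that act on CCR1. IL-4 signals through IL-4Rα and STAT6, and alternatively activated Mϕs are a known source of CCL17, CCL22 and CCL24. IL-6 signals through gp130 and STAT3.

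Levels are given as FPKM, the fragments per kilobase of exon and per 1000000 fragments of a library, so that levels of different genes can be compared. The fragments behind each value were read back from the FPKM steps, and the libraries held 29988160 to 39909571 fragments. Log2 fold changes come from limma on log2(FPKM + 0.1), a scale that makes changes of low genes look smaller. A gene was called where the Benjamini-Hochberg adjusted p was under 0.05 and the log2 fold change reached 1 in either direction. Errors are SD over 3 libraries (n = 3), SE is the standard error of the fit, and exact permutation tests of 3 libraries against 3 are two-sided and cannot give a p below 0.1. Both treatments were visible in their usual targets, although Arg1 and Chil3, raised by IL-4, were also called higher with IL-6 against control. Arg1 rose from 0.577 ± 0.156 to 1038 ± 273 FPKM with IL-4 (limma adjusted p = 1.95e-06), and Socs3 rose from 2.27 ± 0.653 to 80.4 ± 5.42 FPKM with IL-6 (limma adjusted p = 3.02e-05). The libraries also fall into 2 sets that do not follow the conditions. In the first, all control libraries and IL-4 #1, Paneth and goblet cell genes took 32.8 to 49.1 of 1000000 fragments. In the second, which holds IL-4 #2, IL-4 #3 and all IL-6 libraries, they took 0.0990 to 0.245, while skeletal muscle genes took 3.74 to 14.0 in the first set and 17.4 to 28.1 in the second. Every comparison of IL-6 with control runs across these sets. A fit with a term for the set rests on IL-4 #1 against IL-4 #2 and #3. It is given for members where it changes a call or moves a value by over 1.5 times. With this term, IL-4 against control compares IL-4 #1 alone with the controls. IL-6 against IL-4 then compares IL-6 with IL-4 #2 and #3 alone. The value for IL-6 against control is the sum of these differences, so it carries the spread among the IL-4 libraries.

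The sequences upstream of 4 of the 5 genes were read from the RefSeq table of GRCm38.p6, which matched Ccl17, Ccl22, Ccl6 and Ccl9 by symbol. They are shown because the genes lie in neighbouring pairs, Ccl22 and Ccl17 on chromosome 8 and Ccl9 and Ccl6 on chromosome 11. In the first pair the capitals mark matches to a STAT6-type motif (TTCNNNNGAA) and to a general STAT motif (TTCNNNGAA). The Ccl17 stretch lies at chr8:94810203-94810452 and the Ccl22 stretch at chr8:94745434-94745589, both on the plus strand and read 5′ to 3′. The Ccl22 stretch is shorter, with 156 bases, since it stops at the GENCODE start of the gene, 94 bases before the RefSeq start.
Ccl17: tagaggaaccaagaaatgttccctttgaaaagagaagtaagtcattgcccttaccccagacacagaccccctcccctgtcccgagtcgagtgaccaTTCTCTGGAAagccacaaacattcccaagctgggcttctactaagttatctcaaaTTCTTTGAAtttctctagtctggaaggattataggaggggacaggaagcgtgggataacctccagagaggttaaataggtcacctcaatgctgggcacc
Ccl22: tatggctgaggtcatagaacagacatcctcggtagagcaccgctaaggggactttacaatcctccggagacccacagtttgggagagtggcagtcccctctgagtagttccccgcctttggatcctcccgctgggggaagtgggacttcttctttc
The motifs were searched in a longer window than the stretches shown, from 250 bases before to 50 bases after the RefSeq start. In it Ccl17 held 1 match to each motif, TTCTCTGGAA at bases -154 to -145 and TTCTTTGAA at bases -99 to -91. The whole Ccl22 window held neither. Searched on both strands, the STAT6-type motif was present in 6.95% and the general STAT motif in 8.30% of 32851 promoter windows of the same length.

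In the second pair the capitals mark the longest stretch that the upstream sequences printed here share on the same strand. In Ccl9 they also mark the letters of a TATA box (TATAAA on either strand). The Ccl6 stretch lies at chr11:83593088-83593337 and the Ccl9 stretch at chr11:83578637-83578886, both on the minus strand and read 5′ to 3′.
Ccl6: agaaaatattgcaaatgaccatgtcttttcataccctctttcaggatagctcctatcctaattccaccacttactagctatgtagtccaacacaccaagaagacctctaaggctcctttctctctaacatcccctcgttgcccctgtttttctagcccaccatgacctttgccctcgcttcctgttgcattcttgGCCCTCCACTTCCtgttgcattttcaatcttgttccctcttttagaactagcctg
Ccl9: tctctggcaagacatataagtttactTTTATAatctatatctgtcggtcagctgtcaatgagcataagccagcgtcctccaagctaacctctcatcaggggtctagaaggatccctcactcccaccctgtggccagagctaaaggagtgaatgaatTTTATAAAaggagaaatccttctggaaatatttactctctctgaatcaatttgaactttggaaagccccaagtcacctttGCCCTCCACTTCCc
The shared stretch has 13 bases. Searched on both strands, it was present in 6 of the 32851 longer windows (0.0183%), those of Ccl6 and Ccl9 included. It was picked because Ccl6 and Ccl9 share it, and how often other windows share a stretch of this length was not computed. Over the whole alignment, gaps included, Ccl6 and Ccl9 were 46.2% identical. Ccl17, whose stretch also has 250 bases, was 45.4% identical to Ccl6 and 45.1% to Ccl9, so the neighbouring pair hardly stood out. Pairs with the shorter Ccl22 stretch had 40.4% to 41.2%, with the difference in length counted as gaps. The Ccl9 window held 3 matches to the TATA box, 2 of which overlap on opposite strands, and 1 match each to an AP-1 motif (TGANTCA) and an NF-kB motif (GGGNNNTTCC). TATAAA was found in 13.6%, TGANTCA in 7.81% and GGGNNNTTCC in 5.56% of all windows. The Ccl6 window held none of these, and no window of the 4 genes held a C/EBP motif (TTGCNNAA) or a PU.1 motif (GAGGAAGT), which were present in 10.8% and 3.20% of all windows.

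The resting Mϕs already expressed 2 of the 5 genes at a high level. In control libraries Ccl6 averaged 290.2 ± 50.5 FPKM, rank 117 of the 53379 genes, and Ccl9 averaged 66.3 ± 8.35 FPKM, rank 687. Ccl24 averaged 1.99 ± 0.282 FPKM, Ccl22 0.283 ± 0.0643 FPKM and Ccl17 0.155 ± 0.169 FPKM. In this order each gene lay above the next in all control libraries, except that the ranges of Ccl22 and Ccl17 overlapped. The name constitutive thus matched the levels of Ccl6 and Ccl9. A high control level was not particular to them, since the CC chemokines Ccl3 (96.2 ± 11.3 FPKM) and Ccl4 (77.1 ± 19.1 FPKM) averaged above Ccl9. The type 2 chemokines were low without IL-4, and Ccl17 was under the floor of 3 fragments in 2 of 3 control libraries.

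**Figure D1:**
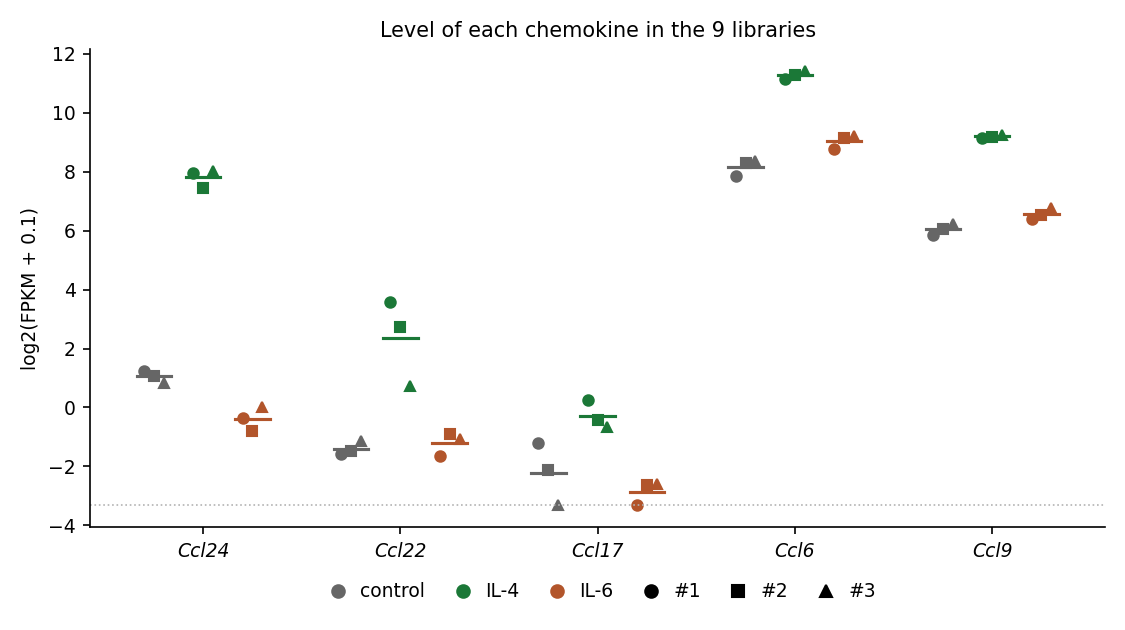
Level of the 5 genes in each library, as log2(FPKM + 0.1), with colors for the condition, symbols for the mouse number and lines for the mean of 3 libraries; the dotted line is an FPKM of 0. Every IL-4 library lies above every control library for each gene, and the IL-4 values of Ccl22 are the most spread.

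IL-4 raised 4 of the 5 genes past the threshold, against 5.02% of the 12824 tested genes called higher. Those 4 had every IL-4 library above every control library, which held for 13.5% of tested genes. So did Ccl17, which is not among the tested genes. Of the 4, Ccl22 entered the tested genes only through its IL-4 libraries, so that its presence among them already required a difference. Ccl17 stayed below the filter and was taken from the same fit without it. The median gene shifted by -0.20 on the log2 scale between IL-4 and control, a shift that all 4 called genes exceeded many times over in the opposite direction. In bulk RNA, a change in the number of expressing cells and a change in RNA per cell cannot be told apart. Mast cell and basophil markers rose beside the members, as given with the other cell types at the end.

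Ccl24 (ENSMUSG00000004814.10, chr5:135569937-135573049, minus strand of GRCm38), the eosinophil attractant, had the widest response. Its FPKM was 2.26, 2.01 and 1.69 in control #1 to #3 and 250.1, 174.7 and 260.4 in IL-4 #1 to #3. The IL-4 libraries exceeded the control libraries by 87.0- to 154-fold within each mouse number, and the groups did not overlap. The log2 fold change was 6.76 (SE 0.243, limma adjusted p = 2.36e-06), with means 115-fold apart. From rank 9268 of the table in control, Ccl24 moved to rank 218 with IL-4. Within the first set of libraries the single IL-4 library was 126-fold above the control mean.

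Ccl24 was also the single member called between IL-6 and control, and it fell. IL-6 #1 to #3 had 0.686, 0.473 and 0.905 FPKM, all below the lowest control library. The values rest on 77 to 102 fragments in control and 20 to 36 in IL-6 libraries. The log2 fold change was -1.43 (SE 0.243, limma adjusted p = 0.00972), and the ratio of fragment rates was 0.344 (exact 95% interval for counting error 0.267 to 0.441). Genes called lower made up 1.89% of those tested in this comparison. With a term for the set the value was -1.20 with an adjusted p of 0.24, and with a pseudocount of 1 the log2 fold change was -0.83, under the fold threshold.

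Ccl22 (ENSMUSG00000031779.3, chr8:94745590-94751699, plus strand), one of the CCR4 ligands, rose with IL-4 but unevenly. Its FPKM was 0.234, 0.258 and 0.355 in control #1 to #3 and 11.9, 6.53 and 1.55 in IL-4 #1 to #3. All IL-4 libraries were above all control libraries, though IL-4 #3 stood well below the other two. Within the mouse numbers #1 to #3 the folds were 50.9, 25.3 and 4.37. The fitted log2 fold change was 3.75 (SE 0.642, limma adjusted p = 0.00404). Without IL-4 #3 it was 4.56 (adjusted p = 4.44e-05), and without IL-4 #1 it was 3.13 (adjusted p = 0.00772). With a term for the set it was 4.99, which compares IL-4 #1, the highest IL-4 library, alone with the controls.

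The SD of Ccl22 among the IL-4 libraries was 1.47 on the log2 scale, larger than that of 95.9% of tested genes, and its highest value was 7.68 times its lowest. On that scale IL-4 #3 lay 2.43 below the mean of the other IL-4 libraries for Ccl22 and 0.56 below for Ccl17, but 0.32 above for Ccl24, 0.21 above for Ccl6 and 0.08 above for Ccl9. The same library deviated with exon length over 11356 genes. Its median deviation was 0.17 for genes under 1000 exonic bases, 0.33 from 1000 to 2500 bases, -0.24 from 2500 to 5000 bases and -0.88 for longer genes. Ccl22 has 2325 exonic bases, near the upper end of the class with a median of 0.33. The cause of its low value in IL-4 #3 was not tested. After the exon length trend was removed from each library the Ccl22 log2 fold change was 3.59 (limma adjusted p = 0.00712), an alternative chosen after seeing the data.

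Between IL-6 and control, Ccl22 was not called. The IL-6 libraries had 0.222, 0.435 and 0.378 FPKM, and their range overlapped that of the controls. These levels rest on 18 to 29 fragments in control and 18 to 33 in IL-6 libraries. The log2 fold change was 0.20 (95% confidence interval -1.28 to 1.67, limma adjusted p = 0.89), an interval wide enough to hold a change of the size of the fold threshold in either direction. With a term for the set the estimate moved to 2.06, with an adjusted p of 0.268. Without a term for the set, the IL-4 library of the first set was 42.2-fold above the control mean, and the IL-4 libraries of the second set were 11.7-fold above the IL-6 mean.

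Ccl17 (ENSMUSG00000031780.2, chr8:94810453-94812036, plus strand), the other CCR4 ligand, was the lowest member in every group. Control #1 to #3 had 0.334, 0.130 and 0 FPKM, IL-4 #1 to #3 had 1.08, 0.642 and 0.536 FPKM, and IL-6 #1 to #3 had 0, 0.0596 and 0.0633 FPKM. The IL-4 libraries stood above all others, while control and IL-6 overlapped. These values rest on 6, 2 and 0 fragments in control, 19, 10 and 11 under IL-4, and 0, 1 and 1 under IL-6, and a count of 0 allows up to 3 fragments. In the fit without the filter the log2 fold change for IL-4 was 1.93 (SE 0.531, limma adjusted p = 0.0597), which did not pass. The summed fragment rates were 4.79 times higher with IL-4 (exact 95% interval for counting error 2.21 to 11.8). The estimate passed with median-ratio rescaling (2.08, adjusted p = 0.0373), with quantile normalization (2.17, adjusted p = 0.0257) and without control #1 (2.44, adjusted p = 0.0292). Between IL-6 and control the ratio of fragment rates was 0.254 (exact interval 0.0263 to 1.27), so no difference was detectable at this depth. With a term for the set the log2 fold change of that comparison went from -0.65 to 0.14 (adjusted p = 0.952).

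Ccl6 (ENSMUSG00000018927.3, chr11:83587882-83593087, minus strand) was the most abundant CC chemokine in each group. It had 232, 313 and 325 FPKM in control #1 to #3 and 2256, 2494 and 2735 FPKM in IL-4 #1 to #3. The groups were far apart relative to the spread within them. The log2 fold change was 3.11 (SE 0.183, limma adjusted p = 1.56e-05), an 8.60-fold difference between means of 290.2 ± 50.5 and 2495 ± 239 FPKM. With IL-4 it ranked 15 among all genes of the table. The gene overlaps E230016K23Rik on the opposite strand, which had 0.197 to 4.32 FPKM over the 9 libraries.

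With IL-6 the Ccl6 level was 434, 569 and 591 FPKM in #1 to #3, above every control library. The difference was 1.83-fold on the means and 1.82- to 1.87-fold within the mouse numbers. Its log2 fold change of 0.87 (95% confidence interval 0.45 to 1.30, limma adjusted p = 0.0241) stayed under the fold threshold, so Ccl6 was not called. An adjusted p under 0.05 in this direction was reached by 4.58% of tested genes, and both that and the fold by 3.49%. Without IL-6 #1 the value was 1.01 (adjusted p = 0.0306), past both thresholds. Leaving out IL-6 #2 or #3 or any one of the control libraries gave 0.72 to 0.96 with an adjusted p of 0.0573 to 0.108, so that the adjusted p was no longer under 0.05. The same held with median-ratio rescaling (adjusted p = 0.0623) and with a term for the set (0.66, adjusted p = 0.29).

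Ccl9 (ENSMUSG00000019122.8, chr11:83572919-83578636, minus strand) lies 9245 bases from Ccl6 and followed it closely. Its FPKM was 58.0, 66.2 and 74.7 in control #1 to #3 and 568, 582 and 609 in IL-4 #1 to #3. The IL-4 values were unusually tight, with an SD of 0.0504 on the log2 scale, larger than that of only 2.4% of tested genes. The log2 fold change was 3.15 (SE 0.138, limma adjusted p = 3.36e-06), an 8.84-fold difference of means. IL-6 #1 to #3 had 84.9, 92.6 and 107.7 FPKM, all above the controls, with a log2 fold change of 0.52 (95% confidence interval 0.20 to 0.83, limma adjusted p = 0.0561) that passed neither threshold. Ccl6 and Ccl9 were the members whose IL-6 libraries all lay above the controls, and Ccl24 the member whose IL-6 libraries all lay below. Such separation was found for 20.0% of tested genes in the higher and 23.2% in the lower direction.

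Within a library, Ccl6 was 4.36 ± 0.364 times as abundant as Ccl9 in control, 4.25 ± 0.264 times under IL-4 and 5.58 ± 0.520 times under IL-6. The ratios in control and IL-4 overlapped (exact permutation p = 0.7), while all 3 IL-6 ratios were above those of both other groups (exact permutation p = 0.1, the smallest possible). Over the 9 libraries the Pearson r of the pair was 0.990 on the log2 scale. After subtraction of the group means it was 0.879, higher than for any other pair of members, which ranged from -0.500 to 0.344. These correlations describe 9 libraries that share groups and depth. Of the 50-base stretches in the exons, 1.97% of those of Ccl9 and none of the other members also occur in another gene.

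**Figure D2:**
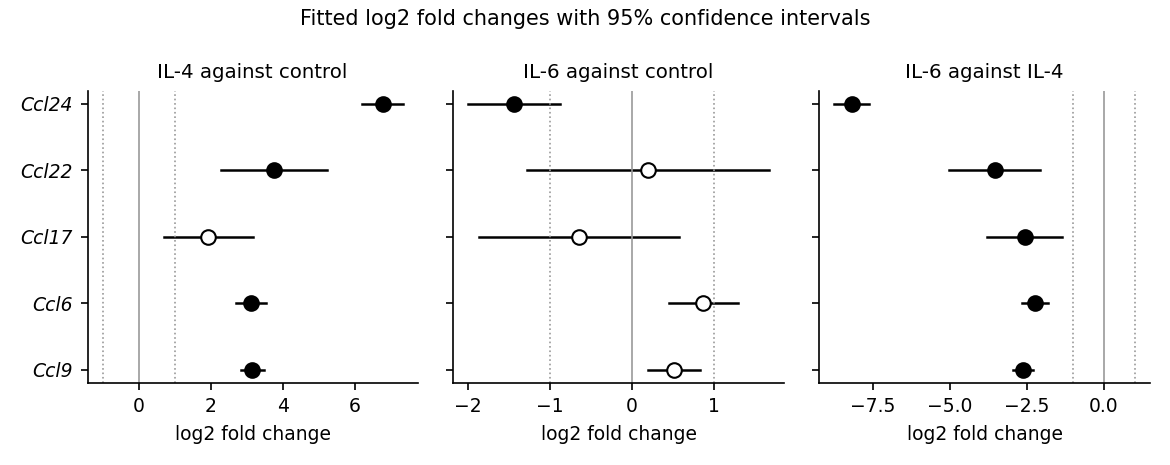
Fitted log2 fold changes of the 5 genes with their 95% confidence intervals, filled where the gene was called and open where it was not; dotted lines mark the fold threshold of 1 in either direction. With IL-4 the values run from 1.93 for Ccl17 to 6.76 for Ccl24, and for IL-6 against control only Ccl24 is filled.

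Compared directly, IL-6-treated Mϕs had less of all 5 chemokines than IL-4-treated Mϕs. The 4 tested members were called lower, against 6.82% of tested genes, and had non-overlapping groups, against 20.6%. Ccl22 was among the tested genes only through its IL-4 libraries here too. Ccl17, below the filter, was called lower in the fit without it, where 3.56% of 31047 genes were called lower. Its groups did not overlap either, and the share of such genes without the filter was not computed. The difference was largest for Ccl24, with a log2 fold change of -8.20 (limma adjusted p = 6.63e-07) and means 332-fold apart. It was -3.55 for Ccl22 (adjusted p = 0.00391), -2.63 for Ccl9 (adjusted p = 4.97e-06) and -2.24 for Ccl6 (adjusted p = 5.39e-05), all by limma. For Ccl17 it was -2.58 (adjusted p = 0.0146), with 2 fragments in all IL-6 libraries against 40 in the IL-4 libraries and a ratio of rates of 0.0531 (exact interval 0.00622 to 0.205). The Ccl17 call was lost with a pseudocount of 1 or 0.01 and without IL-6 #1 (-2.35, adjusted p = 0.0603). For Ccl22 the value was -4.36 without IL-4 #3 and -2.93 without IL-4 #1. The term for the set gave the same -2.93 (limma adjusted p = 0.00695) and is no separate check. It too leaves only IL-4 #2 and #3 to compare with IL-6. Within the second set of libraries, the mean of IL-4 #2 and #3 was 316-fold above the IL-6 mean for Ccl24, 14.4-fold for Ccl17, 6.26-fold for Ccl9 and 4.92-fold for Ccl6. Within the first set, IL-4 #1 was 8.57-fold above the control mean for Ccl9, 7.77-fold for Ccl6 and 6.99-fold for Ccl17. Both comparisons with IL-4 use the same IL-4 libraries, and 2 of the 3 IL-4 libraries are in the set of the IL-6 libraries.

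The 5 genes made up most of the CC chemokine message. The FPKM of 21 CC ligand genes summed to 558 ± 92.5 in control, 3606 ± 219 under IL-4 and 951 ± 135 under IL-6. The members held 64.4 ± 0.724% of this sum in control, 91.9 ± 2.44% under IL-4 and 65.9 ± 0.703% under IL-6. The IL-4 share lay above the other groups in all libraries (exact permutation p = 0.1, the smallest possible). Ccl6 alone accounted for 65.1% to 71.4% of the sum in IL-4 libraries and 51.4% to 52.3% in control. Ccl24 went from 0.273% to 0.499% in control to 5.00% to 7.22% with IL-4.

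**Figure D3:**
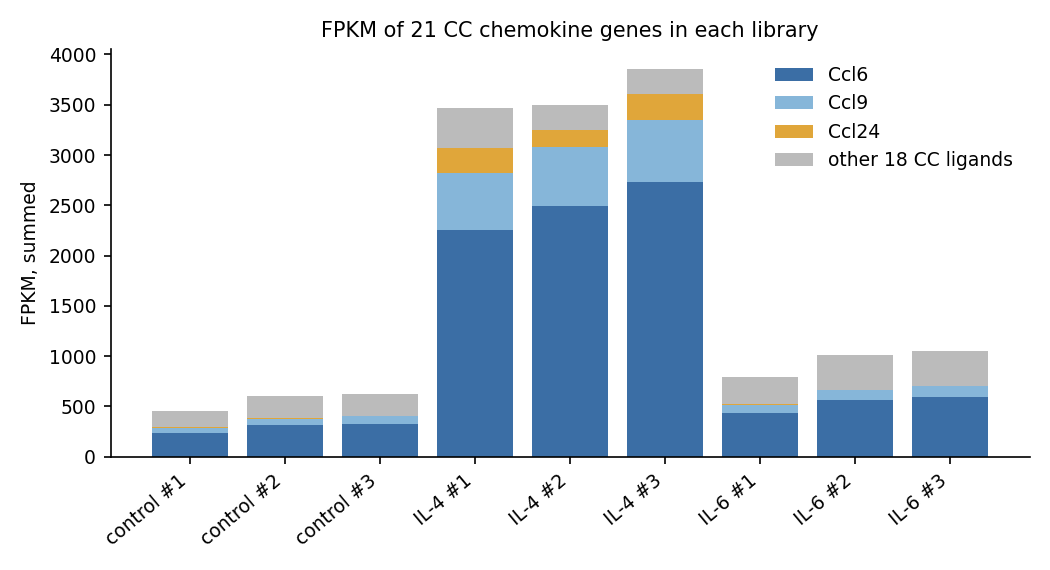
Summed FPKM of 21 CC chemokine genes in each library, with Ccl6, Ccl9 and Ccl24 as separate parts of the bar and the other 18 genes, Ccl22 and Ccl17 included, in grey. The IL-4 libraries reach 3464 to 3859 FPKM, and the control and IL-6 libraries 452 to 1050.

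The other 16 CC ligands changed in both directions. Of the 8 that were tested, IL-4 raised Ccl2, Ccl7, Ccl8 and Ccl12, ligands that attract monocytes, and lowered Ccl3 and Ccl4, the macrophage inflammatory proteins. Ccl7 rose from 7.38 ± 1.91 to 118 ± 23.8 FPKM (log2 fold change 3.99, limma adjusted p = 1.86e-05), and Ccl3 fell from 96.2 ± 11.3 to 26.6 ± 4.69 FPKM (-1.86, adjusted p = 0.000115). IL-6 raised 4 of the 8, namely Ccl5, Ccl7, Ccl8 and Ccl12, and the other 4 were not called. Ccl8 reached 92.1 ± 34.3 FPKM with IL-6, close to Ccl9 at 95.1 ± 11.6 FPKM, and their ranges overlapped. The median log2 fold change of the 8 was 0.59 for IL-4 and 0.81 for IL-6, beside -0.20 and -0.00 over all tested genes. The other eotaxins were near absent, with Ccl11 at 0 to 0.0616 FPKM and Ccl26 at 0 to 0.311 FPKM.

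The receptors of the members differed in level. Ccr1, the receptor of CCL6 and CCL9, rose with both cytokines, from a control level of 33.8 ± 4.44 FPKM to 106 ± 25.7 with IL-4 (log2 fold change 1.62, limma adjusted p = 0.000697) and 83.7 ± 7.48 with IL-6 (1.31, adjusted p = 0.00557). Ccr3, the receptor of CCL24, went the other way from its ligand, from 4.17 ± 1.40 to 0.654 ± 0.0986 FPKM with IL-4 (-2.45, limma adjusted p = 0.00399). Ccr4, the receptor of CCL17 and CCL22, did not exceed 0.0189 FPKM in any library. Among other receptor genes, Ccrl2 fell from 14.1 ± 0.688 to 5.10 ± 0.449 FPKM with IL-4 (-1.45, limma adjusted p = 6.1e-05), and Ccr2 rose from 3.81 ± 0.664 to 41.8 ± 3.07 FPKM with IL-6 (3.43, limma adjusted p = 0.00443). Dpp4, which encodes a protease that trims several chemokines, CCL22 among them, was below the filter, with 0.171 to 0.677 FPKM.

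Genes of the IL-4 and STAT6 pathway changed in both directions. Of 14 genes, all tested, IL-4 raised 7 (Irf4, Egr2, Pparg, Klf4, Myc, Socs1 and Cish) and lowered Il13ra1. Irf4, a transcription factor of alternatively activated Mϕs, rose from 1.88 ± 0.311 to 14.7 ± 5.99 FPKM (log2 fold change 2.83, limma adjusted p = 0.000426). Stat6 itself averaged 61.4 ± 5.34 FPKM in control, 49.1 ± 13.8 under IL-4 and 62.0 ± 0.944 under IL-6 and was not called. With IL-6, Il4ra, Il2rg, Jak3 and Klf4 rose, while Egr2 (-1.06, limma adjusted p = 0.0218) and Pparg (-2.09, adjusted p = 0.000944) fell. Il4ra reached 103 ± 5.52 FPKM with IL-6 against 29.3 ± 1.55 in control (1.81, limma adjusted p = 0.000215). Of 8 genes of the IL-6 and STAT3 pathway, IL-6 raised Stat3, Socs3, Bcl3 and Junb, and IL-4 raised Il6st and Jak2 and lowered Il6ra. The 2 lists have Jak1 in common.

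Around Ccl6 and Ccl9, the other genes called with IL-4 were lower. Of 9 tested protein-coding genes that start within 200 kb of the Ccl6 start, Ccl9 alone was called higher with IL-4. Ccl3, Ccl4, Wfdc17 and Wfdc21 were called lower, as were 1140 of all 12824 tested genes. Wfdc17, a whey acidic protein family gene on the other side of Ccl3 and Ccl4, fell from a control range of 609 to 835 FPKM to a range of 114 to 182 (log2 fold change -2.36, limma adjusted p = 0.00012). IL-6 raised Ccl5 and Wfdc21 there. Ccl22 and Ccl17 lie 58753 bases apart with Cx3cl1, the fractalkine gene, between them at 0.0446 to 0.356 FPKM. The 7 other tested genes within 200 kb of Ccl22 had log2 fold changes of -0.66 to 0.45 with IL-4 (limma adjusted p = 0.141 to 0.962). Near Ccl24, Por, which encodes cytochrome P450 reductase, was called lower with IL-4 (-1.20, limma adjusted p = 0.000386), the one call among 5 tested neighbours.

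**Figure D4:**
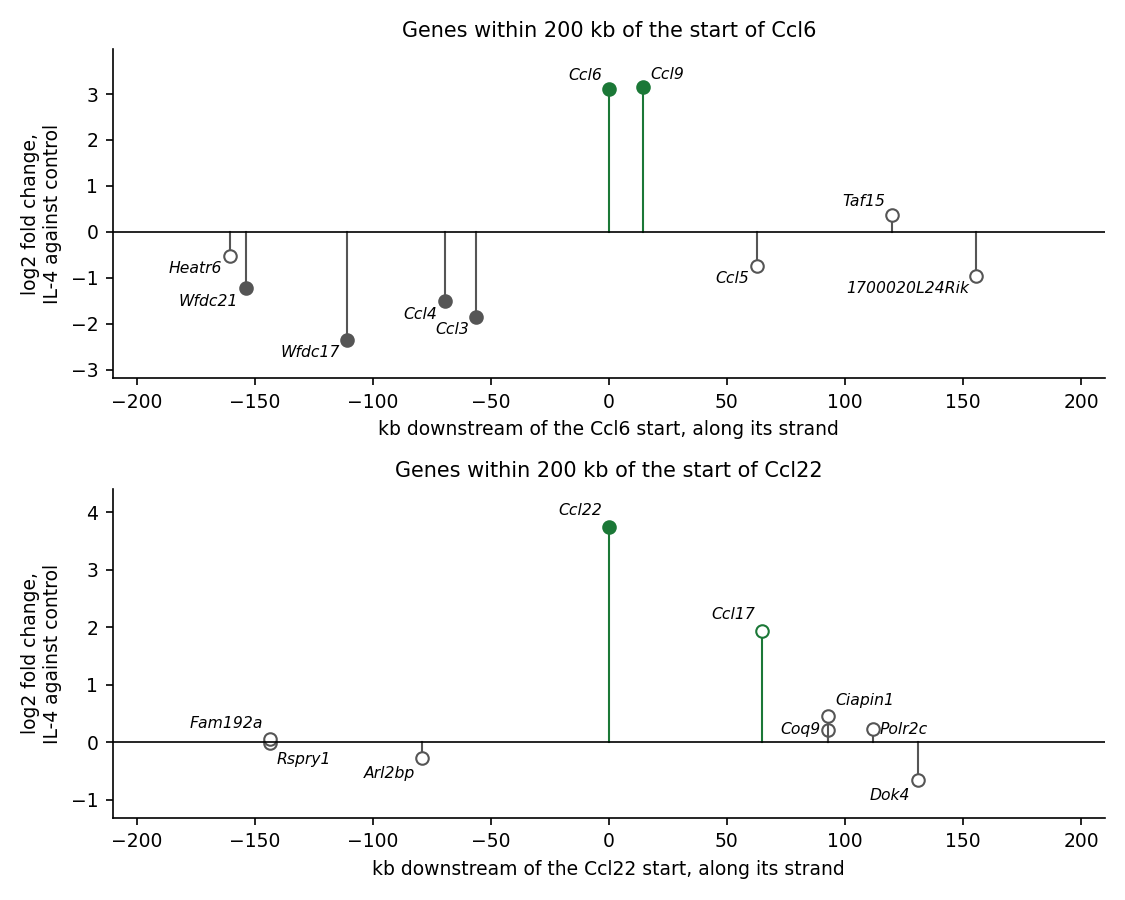
Log2 fold change between IL-4 and control of tested genes and members by the distance of their start from that of Ccl6 (top) or Ccl22 (bottom), in kb along the strand of that gene; members are green, and filled points were called. Ccl6 and Ccl9 stand at 3.11 and 3.15 between genes at or below 0.37, and no plotted neighbour of Ccl22 other than Ccl17 exceeds 0.45.

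By rule, the 3 tested genes most like each member were taken by Pearson r over the 9 libraries. For Ccl24 they were Mgl2 (r = 0.997), a lectin of alternatively activated Mϕs at 7.74, 544 and 2.72 FPKM in the control, IL-4 and IL-6 means, Kcnq1 (0.996) and Mettl27 (0.994). For Ccl9 they were Chil3 (0.998), which encodes a chitinase-like protein and averaged 335, 15936 and 663 FPKM, Plekhf1 (0.997) and Scimp (0.996). For Ccl6 they were Ccl7 (0.995), Gpt2 (0.994) and Tuba8 (0.994). For Ccl22 they were Eng (0.990), Scd1 (0.989) and Nln (0.986). The low Ccl17 had the weakest likeness, with Slc35g1 (0.943), 9130008F23Rik (0.941) and Scrn3 (0.933). All these r were picked as the highest over the 12824 tested genes, and they include the differences between groups. Correlations after subtraction of the group means were not computed for these genes.

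The cultures carried messages of other cell types, which were measured beside the members. All 8 Mϕ markers were tested. Csf1r averaged 631 ± 104 FPKM in control and 278 ± 99.5 with IL-4. Of the 8, 5 were called lower with IL-4, beside 1140 of all 12824 tested genes. Mast cell and basophil markers moved in the direction of the members. All 5 tested of 8 were called higher with IL-4, and the summed FPKM of the list was 5.74 to 12.0 in control, 31.3 to 48.6 under IL-4 and 3.12 to 9.59 under IL-6. The genes called higher were Cpa3, Mcpt8, Ms4a2, Fcer1a and Gata2. Mcpt4 and Tpsb2, mast cell genes of the list, were at 0 in all libraries. Cma1, another mast cell gene, had 0.303 to 0.667 FPKM with IL-4 and was at 0 elsewhere, and Mcpt8, a basophil gene, averaged 3.70 ± 1.77 FPKM in control and 18.6 ± 5.53 with IL-4. Granulocyte markers moved the opposite way, with 10 of 12 lower under IL-4 and sums of 4819 to 8626 FPKM in control, 2157 to 3997 with IL-4 and 7918 to 11002 under IL-6. The dendritic cell list summed to 23.4 to 29.7 FPKM in control, 231 to 403 under IL-4 and 12.1 to 15.4 under IL-6, nearly all of it Itgax, which Mϕs also express. Of the 5 tested genes of this list, Itgax alone was called between IL-4 and control. Between IL-6 and control, Fscn1 was called higher and Itgax lower. Between IL-6 and IL-4, Fscn1 and Kmo were called higher and Itgax lower. Of the defining dendritic cell genes, Flt3 had 0.215 to 0.552 FPKM and Zbtb46 0.0737 to 0.465 FPKM over the 9 libraries. Lymphocyte markers summed to 8.79 to 21.5 FPKM over all libraries, with 1 of 4 tested, Trbc2, higher with IL-4. The part of these cells in the chemokine levels was not tested.

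The calls of the 4 members called for IL-4 held under the settings tried. Ccl17 was not called in the main fit and was called under some alternatives only. Over all alternatives the log2 fold change of Ccl24 stayed between 6.25 and 6.96. Ccl6 stayed between 2.79 and 3.31 and Ccl9 between 2.88 and 3.35. That of Ccl22 lay between 2.29 and 4.99, where the upper end comes from the set term and so from IL-4 #1 alone. These 4 members were called wherever they passed the filter. Ccl17 ranged from 0.60 to 3.22. For IL-6, the values of Ccl6 (0.66 to 1.01) and Ccl9 (0.43 to 0.61) stayed positive and those of Ccl24 (-1.63 to -0.83) stayed negative.

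**Figure D5:**
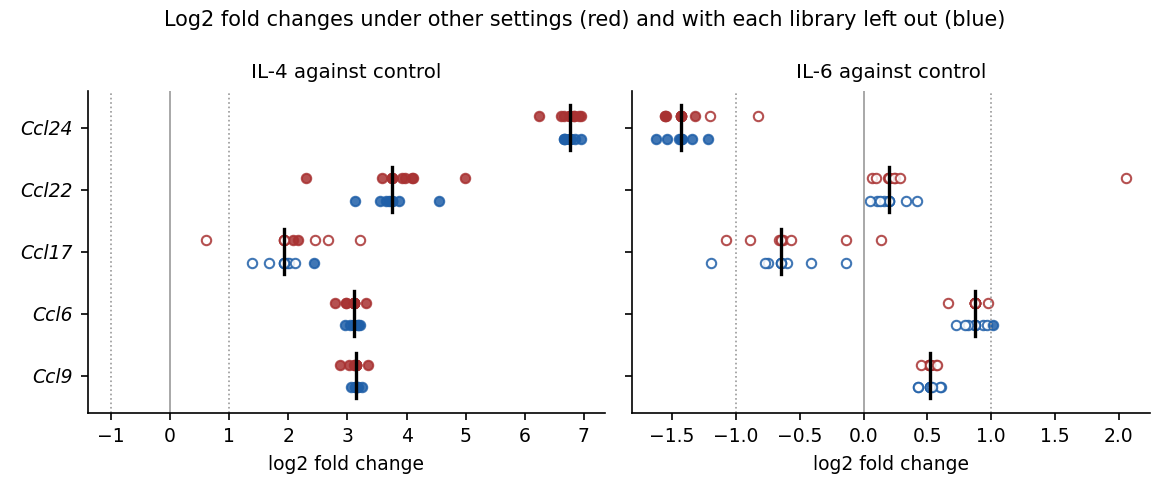
Log2 fold change of each member under other settings (red) and with each library left out (blue), filled where called, with a black line for the reported value and dotted lines at a fold threshold of 1 in either direction. For IL-4 the points of Ccl24, Ccl6 and Ccl9 are all filled, and for IL-6 the open red points of Ccl24 lie at -1.20 and -0.83.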

How the data were processed

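RNA-seq of 9 libraries (polyadenylated RNA, stranded kit) was used as a table of FPKM that the authors deposited. STAR 2.4.2a and Cufflinks 2.2.1 are named in the submitters' processing notes, with GRCm38, and whether counting used strand is not given in the sources used here. Doses and times are those of each sample's treatment label and of the series text. The treatment protocol label has typing errors in the group names and the IL-6 dose, the methods of the study give a higher IL-4 dose, and its legends give another dose and a shorter time. Symbols were matched for 53274 of 53379 identifiers, and 50604 (94.8%) matched GENCODE M21 with their version, which gave coordinates and exon lengths. Dividing FPKM by the worth of 1 fragment gave whole fragments for 141433 of 141433 values tested (within 0.05), and 3 fragments were taken as the floor. Intervals and floors cover counting error only.

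Genes averaging 0.5 FPKM or more (12824) entered a linear model (limma 3.58.1, R 4.3.3) of log2(FPKM + 0.1), 3 groups in one model with trended and robust variance and Benjamini-Hochberg adjustment. Members below the filter came from the fit of all 31047 genes above 0. The fit was tested on simulated data. The members, gene lists and tests were chosen with earlier results of these data known. Named genes are the members, called or leading genes of the fixed lists, protein-coding genes within 200 kb and the 3 most correlated genes of each member. One item of a list is not reported here.

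The mouse numbers come from the titles, and the series text names 3 mice. Deviations from group means of same-numbered libraries correlated with r of 0.521, -0.415 and 0.0777 between IL-4 and control, 0.408, 0.201 and 0.166 between IL-6 and control, and 0.281, -0.0612 and 0.153 between IL-6 and IL-4. A block for the mouse number was fitted as an alternative. Other alternatives were the pseudocount, the filter, 2 rescalings, only the groups compared, a term for the set of libraries, limma voom on recovered fragments, an adjusted p alone, leaving out each library and, added after seeing the data, removal of the exon length trend. Values were computed in Python 3.11.15 (scipy 1.17.1, pandas 2.3.3, numpy 2.4.6), promoters searched in 32851 RefSeq windows, and plots drawn with matplotlib 3.10.9.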

Additional observations from a re-analysis of the deposited data

How the results depend on the processing

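The mouse number as a replicate block changed no call of a member. It gave Ccl17 an adjusted p of 0.0847 for IL-4 against control and Ccl9 an adjusted p of 0.0457 for IL-6 against control, at log2 fold changes of 1.93 and 0.52. With a term for the set of libraries, the log2 fold change of Ccl24 between IL-6 and control was -1.20, that of Ccl17 turned to 0.14 (SE 0.957), and 0 members were called there, as with a pseudocount of 1 (Ccl24 at -0.83), while an adjusted p alone called 2. For IL-6 against IL-4, Ccl17 was not called with a pseudocount of 1 (-0.74) or 0.01 (-4.30), and 3 members were called at a mean FPKM of at least 5, a filter that Ccl22 and Ccl17 do not pass. For IL-4, Ccl17 was called with median-ratio rescaling (2.08) and quantile normalization (2.17).

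Leaving out each library gave 1.38 to 2.44 for Ccl17 in IL-4 against control, 0.72 to 1.01 for Ccl6 in IL-6 against control and -2.77 to -2.32 for Ccl17 in IL-6 against IL-4, with 1 to 2 members called for IL-6 against control. Over all genes, 1784, 690 and 2613 were called for IL-4 against control, IL-6 against control and IL-6 against IL-4. These counts became 847, 306 and 1219 at a mean FPKM of at least 5, where fewer genes are tested, and 3186, 1077 and 4375 for an adjusted p alone. The set term lowered both counts against control, to 1111 and 187, but raised that of IL-6 against IL-4 to 3274, and leaving out a library gave 387 to 1001 for IL-6 against control. The cause of the other changes was not tested. Depth limits Ccl17 in all groups, Ccl22 in control and with IL-6, and Ccl24 with IL-6.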
